A study of Mus musculus with 8 samples.

Results

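Mouse embryonic stem (ES) cells given the small molecule IDE2 and then the growth factor FGF2 were set against undifferentiated ES cells of the same line. The comparison used 4 of the 8 arrays of the series, picked by their titles: 2 of IDE2+FGF2 cells and 2 of undifferentiated ES cells. All cells were E14TG2a, an established mouse ES line. IDE2+FGF2 cells had IDE2 at 1 uM for 6 days and then FGF2 at 500 ng/ml for 5 days, 11 days in all, in a medium of Iscove's and Ham's F12 with N2, B27, ascorbic acid and little serum. Of the remaining pairs of arrays, 1 came from cells kept on 1 uM IDE2 for all 11 days, and 1 from cells given IDE2 for 6 days and then FGF10 at 25 ng/ml for 5 days. Undifferentiated ES cells were kept in GMEM with serum and medium conditioned with LIF. No group spent 11 days in the differentiation medium without IDE2, so the effects of time, medium, IDE2 and FGF2 cannot be told apart in the comparison with ES cells. Replicates are numbered 1 and 2 in each group, and the labels do not say whether they were separate cultures, so the p-values reflect how far these arrays spread and nothing wider, and that spread may be technical.

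Mouse ES cells renew themselves through a circuit of transcription factors with Pou5f1, Sox2 and Nanog at its core. Factors such as Klf4, Tbx3 and Esrrb mark its naive form. FGF signalling, which runs through receptor tyrosine kinases to the ERK cascade, is a main route out of that state, and it switches on its own inhibitors of the Sprouty and dual-specificity phosphatase families as well as the ETS factors Etv4 and Etv5. IDE2 is known as an inducer of definitive endoderm, the germ layer from which the lung, the liver and the gut form.

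RNA was read on Illumina bead arrays, with a median of 38 to 40 beads per probe. A probe was called detected where its signal stood above the array's background at a detection p under 0.05. That held for 12809 and 13080 of 25697 probes on the IDE2+FGF2 arrays, against 12145 and 12187 on the ES arrays. Levels are log2 values of background-corrected and quantile-normalized signal, so a difference of 1 is 2-fold, and each of the 9915 genes tested is represented by its brightest probe. Levels of different genes come from different probes and were not compared with each other. A gene was called higher or lower where limma's moderated test, fitted over all 8 arrays, gave a Benjamini-Hochberg adjusted p under 0.05 over the 9915 genes. A gene below detection on both arrays of the lower group has only a bound, written as "at least" and counted from that group's dimmest detected probes.

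The ES arrays carried the ES label's markers: 8 of 8 were detected on both of them. All 8 were also detected on both IDE2+FGF2 arrays, where 7 of them were lower. Markers of other cell types were looked for on the IDE2+FGF2 arrays. Both arrays detected 5 of 7 markers of smooth muscle and fibroblasts, 4 of 6 of visceral and parietal endoderm, 3 of 4 of cardiac muscle and 2 of 4 of trophoblast that had a probe. Both ES arrays detected 2, 2, 2 and 1 of these. In that order 4, 2, 1 and 2 markers rose and 1, 1, 2 and 0 fell. The falls were in Thy1, Sox7, Myl7 and Myh6, so detection alone does not give an identity. For definitive endoderm both IDE2+FGF2 arrays detected 2 of 6, Sox17 and Hhex, and not Foxa2, Gsc or Cer1. For lung epithelium they detected 2 of 7, Foxj1 and Pdpn, and not Nkx2-1, Sftpc, Sftpb or Scgb1a1, while both ES arrays detected 3. For endothelium both IDE2+FGF2 arrays detected 3 of 6, Pecam1, Emcn and Plvap, and not Cdh5 or Kdr. Emcn rose, Pecam1 fell, and Plvap rose by 0.93 (adjusted p = 0.049), a call lost in 8 of 19 alternative settings. Tek, detected on 1 of these arrays, fell by 1.39 (adjusted p = 0.014), a call lost in 3 of 19 settings. For the neural lineage both IDE2+FGF2 arrays detected 2 of 5, Map2 and Zic1, and not Pax6, Sox1 or Tubb3. Map2 and Zic1 rose, Map2 by 1.72 (adjusted p = 0.0078), a call lost in 4 of 19 settings. None of the 4 blood markers with a probe (Ptprc, Lyz2, Hba-a1 and Hbb-bh1) was detected on either array.

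The IDE2+FGF2 replicates were less alike than the ES replicates. Their log2 levels correlated across genes at a Pearson r of 0.964, against 0.990 for the ES arrays, and 1023 genes were at least 2-fold apart between them, against 176 between the ES arrays; genes within an array are not independent replicates. On the first principal component, which held 60.2% of the variance over all 8 arrays, IDE2+FGF2 replicates 1 and 2 scored 26.6 and 2.20, against -93.2 and -91.9 for the ES replicates. Replicate 2 lay nearer the ES mean than replicate 1 for 57.8% of all genes. For named genes that differed from ES cells, both values are given where leaving out 1 of these arrays moved the fold by over 1.5 times. Genes that did not pass were left out of this. Some had log2 changes that spread widely over the alternative settings, such as Etv5 (-1.51 to -0.29), Tgfb1 (-2.86 to -0.22) and Notch1 (-1.25 to 0.16).

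Over the whole table, 3423 of 9915 genes (34.5%) differed between IDE2+FGF2 and ES cells. Of these, 1760 were higher (17.8% of the genes tested) and 1663 lower (16.8%), and the median log2 change of all genes was -0.01. Changes of at least 2-fold made up 3034 of the calls, 1586 higher (16.0%) and 1448 lower (14.6%). Replicates of the 2 groups did not overlap for 70.0% of all genes, so a lack of overlap by itself says little about a single gene. Shares and medians of gene groups below are to be read against these values.

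Acta2, Igf2 and Bgn had the highest fitted rises, and that of Bgn rests on an undetected ES level. Acta2, the smooth muscle alpha-actin, had log2 levels of 15.37 and 15.06 on the IDE2+FGF2 arrays, against 7.69 and 7.59 on the ES arrays, a log2 change of 7.58 (SE 0.27, 191-fold, adjusted p = 2.2e-07). Igf2, a growth factor of the embryo made from the paternal allele, had 15.82 and 15.91 in IDE2+FGF2 cells, against 9.07 and 9.25 in ES cells (log2 change 6.70, SE 0.27, 104-fold, adjusted p = 3.8e-07). Both genes were detected on all arrays of both groups, and the groups did not overlap. Bgn, the matrix proteoglycan biglycan, had 11.87 and 11.92 in IDE2+FGF2 cells and was undetected in ES cells (at least 76.7-fold, adjusted p = 8.4e-07). Chst1, a sulfotransferase that modifies keratan sulfate, was at least 49.2-fold higher, and Serpinf1, which encodes pigment epithelium-derived factor, at least 43.8-fold higher (adjusted p = 3.3e-06 each). Further down the 15 highest rises stood Gbp2, an interferon-inducible GTPase (log2 change 5.37), Spon2, a secreted matrix protein (5.13), and Kng1, the kininogen precursor (at least 20.5-fold on its brightest probe, while another of its probes was detected on 1 ES array).

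Septin1, Msc, Exoc3l, Inhbb and Krt42 had the deepest fitted falls, and that of Msc rests on an undetected IDE2+FGF2 level. Msc, a basic helix-loop-helix repressor also called musculin, was undetected on both IDE2+FGF2 arrays, against 10.19 and 10.17 on the ES arrays (at least 26.6-fold lower, adjusted p = 2.4e-06). Inhbb, the beta B subunit of activin and inhibin, had 5.64 and 5.94 in IDE2+FGF2 cells, against 10.38 and 10.16 in ES cells (log2 change -4.48, SE 0.29, adjusted p = 5e-06). Krt42, a type I keratin, had 7.07 and 6.50 against 11.11 and 11.41 in ES cells (log2 change -4.47, SE 0.39, adjusted p = 2.2e-05). Tcf15, a helix-loop-helix factor that primes ES cells for differentiation, fell by 4.10 on the log2 scale and Zfp296, a zinc finger protein of pluripotent cells, by 3.90. Septin1 had a fitted change of -5.45, but of its IDE2+FGF2 arrays, at 5.07 and 6.75, replicate 1 did not detect it, so that value has no exact level; the change was -4.61 without replicate 1 and -6.29 without replicate 2, the second resting on the undetected value alone.

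The sizes of these folds depend on the processing more than their directions do. Without background correction, 161 of 313 changed genes checked one by one had folds smaller by over 1.5 times, and none changed direction. Averaging a gene's probes in place of taking the brightest moved 31 folds by over 1.5 times. Of these, 29 moved towards smaller values, among them Tbx3 (log2 change -3.04), Efna5 (2.875) and Gbp2 (3.677). Beside the genes for which it is said where they are described, Abca3, Bbc3, Bmp1, Cdh3, Cdkn1a, H2-T23, Irf1, Muc1, Nes, Pfkp, Tapbp, Tgfbr3 and Uhrf2 had another probe that did not pass the test, and Dusp6 had probes at 2.84, 1.28 and 1.09, the last at the threshold.

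**Figure D1:**
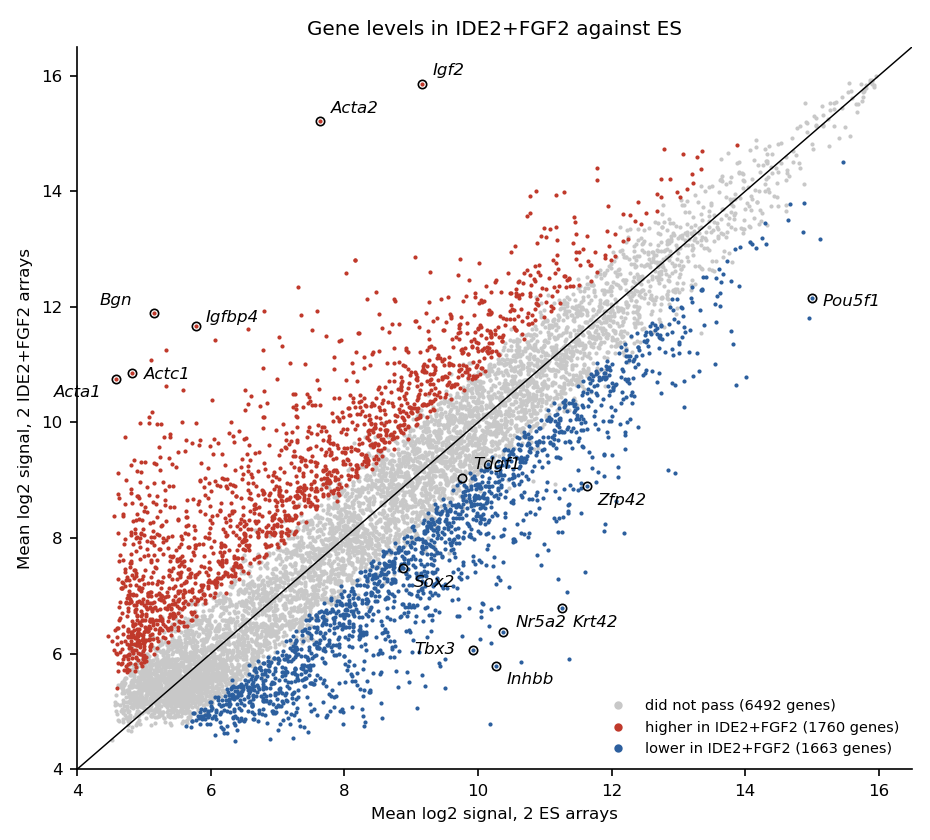
Mean log2 level of each of the 9915 genes on the 2 ES arrays (horizontal axis) and on the 2 IDE2+FGF2 arrays (vertical axis), coloured by whether the gene was higher (1760), lower (1663) or did not pass the test. Acta2 and Igf2 lie far above the diagonal, Bgn, Acta1 and Actc1 leave the background level of ES cells, and Tbx3, Nr5a2, Inhbb and Krt42 lie far below the diagonal.

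Pluripotency genes fell in IDE2+FGF2 cells. Of 21 naive pluripotency genes, 17 had a probe and 16 were tested; 13 fell and none rose, with a median log2 change of -2.24. Tbx3, a T-box factor downstream of LIF, had 6.07 and 6.05 in IDE2+FGF2 cells, against 9.91 and 9.92 in ES cells (log2 change -3.86, SE 0.29, adjusted p = 8.8e-06). Esrrb, an orphan nuclear receptor of the naive circuit, had 10.84 and 10.71 against 14.07 and 13.95 in ES cells (-3.23, SE 0.27, adjusted p = 1.6e-05). The Kruppel-like factors Klf2, Klf4 and Klf5, which hold up the naive state together, fell by 3.66, 3.41 and 2.09 on the log2 scale. Nr5a2, a nuclear receptor that activates Pou5f1, fell by 3.99 on its brightest probe; of its other probes 1 fell by 3.15 and 1 did not pass the test at -0.40. Members that did not pass were the LIF receptor Lifr (0.12, adjusted p = 0.84), the signal transducer Stat3 (-0.11, adjusted p = 0.83) and Dppa5a (-0.14, adjusted p = 0.82). In a bulk sample, fewer cells that express a gene and less RNA of it per cell cannot be told apart.

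Of 15 core pluripotency genes, 14 had a probe and were tested, and 11 fell and none rose (median log2 change -1.61). Pou5f1, the octamer-binding factor at the centre of the circuit, had 11.75 and 12.57 in IDE2+FGF2 cells, against 15.23 and 14.78 in ES cells, a log2 change of -2.84 (SE 0.39, 7.18-fold lower, adjusted p = 0.00037). Zfp42, the Rex1 zinc finger protein, had 8.96 and 8.84 against 11.42 and 11.85 in ES cells (-2.74, SE 0.32, adjusted p = 0.00013). Nanog had 11.71 and 11.41 against 12.91 and 12.90 in ES cells (-1.35, SE 0.27, adjusted p = 0.0034), and Sox2 had 7.58 and 7.37 against 8.83 and 8.93 (-1.41, SE 0.27, adjusted p = 0.0023). The groups did not overlap for any of these 4 genes, and each was still detected on both IDE2+FGF2 arrays. L1td1, an RNA-binding protein of ES cells, fell by 3.10, with -3.69 without replicate 1 and -2.52 without replicate 2 of IDE2+FGF2. Gdf3, a ligand of the TGF-beta family made by pluripotent cells, fell by 2.56 and Utf1, a chromatin protein of ES cells, by 1.81. The exceptions were Tdgf1, the Nodal co-receptor Cripto, Dppa4 and the RNA-binding protein Lin28a. Tdgf1 had 9.86 and 8.23 in IDE2+FGF2 cells, against 9.75 and 9.78 in ES cells (-0.72, adjusted p = 0.24), so replicate 1 was at the ES level and replicate 2 below it; another of its probes fell by 1.23 (adjusted p = 0.036). Lin28a had 10.39 and 10.62 against 10.15 and 10.94 in ES cells (-0.04, adjusted p = 0.95), while another of its probes fell by 0.85 (adjusted p = 0.039). Dppa4 had 13.61 and 12.93 against 13.76 and 13.57 in ES cells (-0.40, adjusted p = 0.34) on its brightest probe, and another probe fell by 0.99 (adjusted p = 0.015).

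The promoters of Nanog and Zfp42, both of them fallen genes, show the octamer core TTTGCAT, part of the motif that Pou5f1 and its relatives bind. The windows are the 250 bases before the annotated start, from RefSeq on GRCm38.p6, and the capitals mark the match. The Nanog window shown is chr6:122707239-122707488 on the plus strand, with the match 75 bases before the start. Nanog has another annotated start, with the window chr6:122707315-122707564, and the same match lies 151 bases before that start. The Zfp42 window is chr8:43307010-43307259 on the minus strand, with the match 185 bases before the start. The windows of Pou5f1 and Utf1, which also fell, held no match and are not shown.
Nanog: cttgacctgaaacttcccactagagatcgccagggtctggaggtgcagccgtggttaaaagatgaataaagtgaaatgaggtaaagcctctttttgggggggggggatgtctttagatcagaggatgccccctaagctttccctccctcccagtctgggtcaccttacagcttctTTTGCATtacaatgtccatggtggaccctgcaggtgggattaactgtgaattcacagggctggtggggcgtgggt
Zfp42: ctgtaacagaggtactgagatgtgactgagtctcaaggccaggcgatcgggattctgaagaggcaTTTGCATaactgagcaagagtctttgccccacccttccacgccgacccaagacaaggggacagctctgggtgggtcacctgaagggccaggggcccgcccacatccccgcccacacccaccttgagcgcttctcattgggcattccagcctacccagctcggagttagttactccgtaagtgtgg
Searched on both strands, this core was in the windows of 3 of the 9 core pluripotency genes that fell and had a window, and in 0 of 8 naive genes that fell. Over all genes with a window the share was 4.65% (1257 of 27025), and it was 4.62% among all genes that rose and 4.83% among all that fell. A match describes these letters only and is no evidence of binding.

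Genes of the primed epiblast, the state into which naive cells pass after implantation, rose. Of 13 such genes, all with a probe, 9 were tested; 8 rose and none fell (median log2 change 1.41). Fgf5, the FGF ligand that marks the primed epiblast, had 8.87 and 8.30 in IDE2+FGF2 cells and was undetected in ES cells (at least 7.76-fold, adjusted p = 3.9e-05). Otx2, a homeobox factor of the epiblast and the anterior neural plate, had 12.02 and 12.37 against 10.87 and 10.69 in ES cells (log2 change 1.41, SE 0.29, adjusted p = 0.0037). Sall2, a zinc finger factor, rose by 3.31 and the POU factor Pou3f1 by 1.73. Dnmt3b, a de novo DNA methyltransferase, had 13.74 and 13.46 against 13.85 and 13.81 in ES cells and did not pass on its brightest probe (-0.23, adjusted p = 0.55), while another probe fell by 0.94 (adjusted p = 0.048).

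Germline genes were split. Of 20, 16 had a probe and 10 were tested, 5 of which fell and 2 rose; 1 rose without replicate 1 or 2 of ES or replicate 1 of IDE2+FGF2. Tex19.1, which holds down retrotransposons, fell by 3.83, Dazl, an RNA-binding protein of germ cells, by 3.58, and Piwil2, a piRNA-binding protein, by 2.43. Dppa3, the maternal factor Stella, went the other way, with 8.16 and 7.97 in IDE2+FGF2 cells, against 5.42 and 5.90 in ES cells, where 1 array detected it (log2 change 2.41, SE 0.42, adjusted p = 0.0014). The 10 tested members thus held both early germ cell genes that were lower and Dppa3, which was higher.

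**Figure D2:**
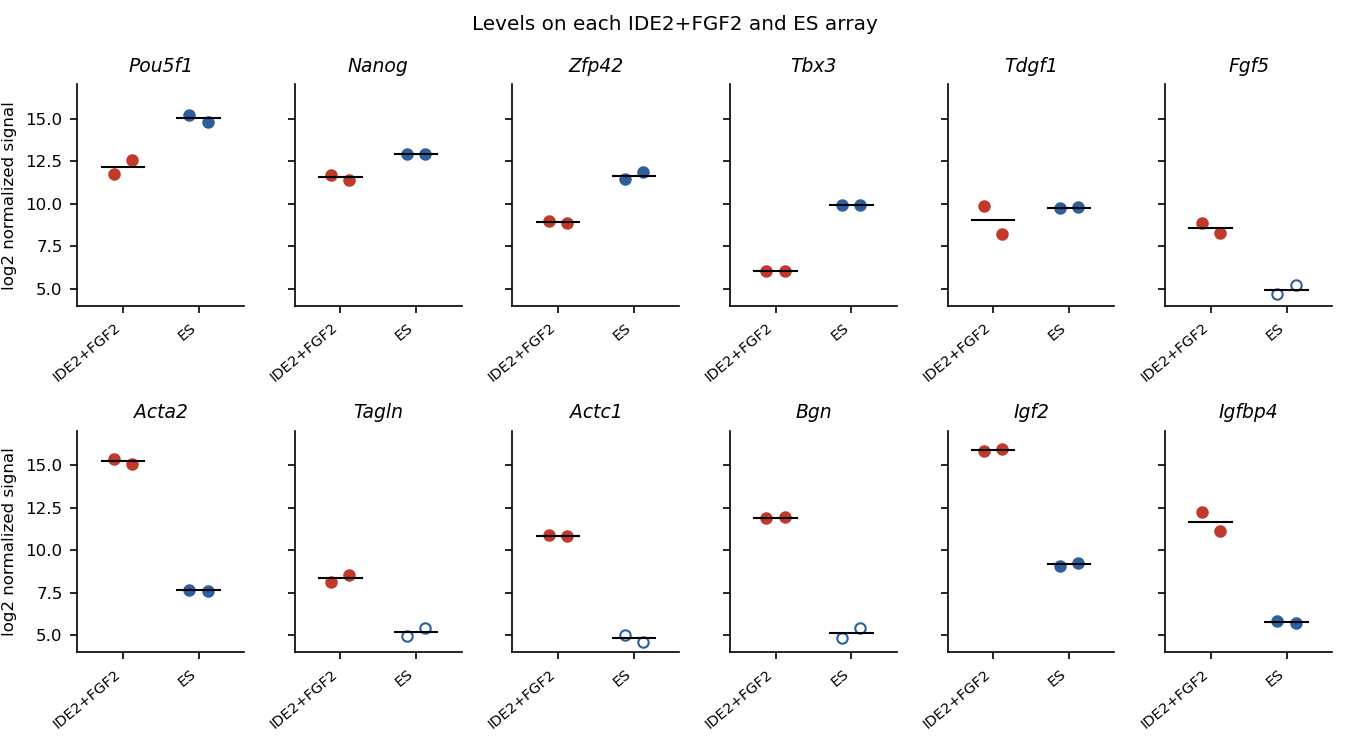
Log2 level of 12 genes on each IDE2+FGF2 array and, to its right, on each ES array; a filled point was detected on both arrays of its group, a grey point stands for a group with 1 detected array, a white point for a group with none, and the line is the group mean. The 5 pluripotency genes are lower in IDE2+FGF2 cells except Tdgf1, whose replicate 1 (9.86) is at the ES level, while Fgf5, Acta2, Tagln, Actc1, Bgn, Igf2 and Igfbp4 are higher on both IDE2+FGF2 arrays.

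Many contractile genes rose, and muscle actins led them. Of 41, 36 had a probe and 33 were tested; 17 rose and 3 fell, with a median log2 change of 1.23, and 1 fell without replicate 2 of ES or replicate 1 of IDE2+FGF2. All 4 tested actins of muscle rose. Acta1, the skeletal muscle actin, had 11.32 and 10.20 in IDE2+FGF2 cells and was undetected in ES cells (at least 34.9-fold, adjusted p = 3.3e-06). Actc1, the cardiac actin that early smooth muscle also makes, had 10.87 and 10.84 on its brightest probe and was likewise undetected in ES cells (at least 37.3-fold, adjusted p = 2.4e-06). Its fitted log2 change was 6.04 on that probe and 4.60 (24.2-fold) with its probes averaged. Actg2, the enteric smooth muscle actin, was at least 8.50-fold higher (adjusted p = 7.3e-05). The coding sequences of these actins are nearly identical, and whether their probes read each other's RNA was not tested; Acta2 had 4 probes, and all rose.

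Calponin, Cnn1, a late smooth muscle marker, was undetected. Tagln, the actin-binding protein SM22, had 8.15 and 8.56 in IDE2+FGF2 cells and was undetected in ES cells (at least 6.61-fold, adjusted p = 3.8e-05). Tropomyosins Tpm1 and Tpm2 rose by 3.14 and 2.64 on the log2 scale, the focal adhesion proteins Zyx and Vcl by 2.71 and 1.98, and the non-muscle myosin heavy chains Myh10 and Myh9 by 2.32 and 1.73. Desmin, Des, an intermediate filament of muscle, had 10.31 and 9.30 against 7.76 and 7.41 in ES cells (2.22, SE 0.36, adjusted p = 0.00088). Of the 3 that fell, Myl7, the atrial myosin light chain, was undetected in IDE2+FGF2 cells, against 6.68 and 7.17 in ES cells (at least 2.78-fold lower, adjusted p = 0.00066), and Myh6, a cardiac myosin heavy chain, fell by 1.18, a call lost without replicate 2 of ES or replicate 1 of IDE2+FGF2. The slow troponin Tnnt1 fell by 1.35 (adjusted p = 0.037), a call lost in 7 of the alternative settings. Srf and Myocd, regulators of contractile genes, did not pass the test on their brightest probes. Srf, the serum response factor, had 11.06 and 10.52 against 9.68 and 10.03 in ES cells (0.93, adjusted p = 0.079), while another of its probes fell by 1.56 (adjusted p = 0.021). Myocd, its muscle co-activator, was detected on 1 of the 4 arrays (-0.14, adjusted p = 0.8), and the smooth muscle kinase Mylk was detected on 1 as well (0.65, adjusted p = 0.14).

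The promoters of Acta1 and Actc1 each show a CArG box, the motif that serum response factor binds. They are shown with the Acta2 window, which has no exact match within the same 250 bases (RefSeq, GRCm38.p6; capitals mark the box). The windows are chr8:123894776-123895025 for Acta1, chr2:114052876-114053125 for Actc1 and chr19:34255374-34255623 for Acta2, all on the minus strand, with the box 73 bases before the start in Acta1 and 47 bases before it in Actc1.
Acta1: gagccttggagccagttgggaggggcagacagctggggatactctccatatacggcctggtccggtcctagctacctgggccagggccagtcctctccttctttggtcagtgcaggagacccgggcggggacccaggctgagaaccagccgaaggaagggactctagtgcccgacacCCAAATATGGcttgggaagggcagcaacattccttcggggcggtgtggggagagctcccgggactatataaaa
Actc1: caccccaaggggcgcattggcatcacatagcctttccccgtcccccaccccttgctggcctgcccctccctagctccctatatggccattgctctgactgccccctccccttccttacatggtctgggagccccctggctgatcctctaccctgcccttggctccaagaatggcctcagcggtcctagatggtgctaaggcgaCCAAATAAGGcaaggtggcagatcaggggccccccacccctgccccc
Acta2: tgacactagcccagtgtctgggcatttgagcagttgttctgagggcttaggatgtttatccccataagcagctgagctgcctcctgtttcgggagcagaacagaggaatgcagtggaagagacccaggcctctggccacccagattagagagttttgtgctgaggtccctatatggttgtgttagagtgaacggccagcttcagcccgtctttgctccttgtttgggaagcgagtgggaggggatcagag
Of 29 tested contractile genes with a window, 7 held such a box, as did 4 of the 15 that rose and 1 of the 3 that fell. The share was 1.62% over all genes with a window (439 of 27025), 1.59% among all genes that rose and 1.04% among all that fell. No box in the Acta2 window says only that the exact motif is not within those 250 bases. Near matches were not searched for, and the Acta2 window holds stretches that differ from the motif by a single base.

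Most fibrillar matrix genes rose. Of 40, 36 had a probe and 31 were tested; 21 rose and 1 fell, with a median log2 change of 1.86, or 1.64 with undetected genes set at their bound. Beside Bgn, the glycoprotein tenascin Tnc had 9.83 and 10.55 in IDE2+FGF2 cells and was undetected in ES cells on its brightest probe (at least 23.5-fold, adjusted p = 4.6e-06), while another probe was detected on 1 ES array. Mmp2, a gelatinase that cuts collagen, had 12.31 and 13.32 against 8.24 and 8.08 in ES cells (log2 change 4.65, SE 0.35, adjusted p = 8.8e-06). Levels of both genes were far apart between the groups.

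Among the collagens, Col6a1 was at least 13.2-fold and Col3a1 at least 9.33-fold higher (adjusted p = 5.4e-06 and 3e-05), and Col5a1 rose by 3.35 on the log2 scale. A dimmer Col3a1 probe did not pass the test (1.02, adjusted p = 0.055). Col1a1, the main chain of fibrillar collagen I, had 6.79 and 9.45 in IDE2+FGF2 cells and was undetected in ES cells (higher by at least 2.48 on the log2 scale, adjusted p = 0.0046); the bound was 1.16 from replicate 1 alone and 3.81 from replicate 2 alone. Its partner chain Col1a2 and the proteoglycan decorin, Dcn, were undetected in both groups. Tgfbi, a matrix protein induced by TGF-beta, rose by 3.79 and the inhibitors of matrix proteases Timp2 and Timp3 by 3.75 and 2.89, Timp2 by 4.35 without replicate 1 and 3.16 without replicate 2, whereas Timp1 had 11.51 and 10.95 against 11.00 and 10.95 in ES cells (0.25, adjusted p = 0.69). Ccn2 and Ccn1, matricellular proteins that respond to stretch and serum, rose by 2.61 and 2.14. The fall was in Mfap5, a microfibril protein, undetected in IDE2+FGF2 cells (at least 2.50-fold lower, adjusted p = 0.002).

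Enzymes that process collagen rose in 6 of 14 tested members and fell in 1, out of 18 listed and 15 with a probe (median log2 change 0.79), and 2 fell without replicate 2 of IDE2+FGF2. Bmp1, which trims the end of procollagen, rose by 3.49 (2.80 without replicate 1 and 4.19 without replicate 2 of IDE2+FGF2), its chaperone Serpinh1 by 2.90, and the prolyl hydroxylases P3h2, P4ha1 and P4ha2 by 2.73, 1.77 and 1.39, P3h2 from a level that 1 ES array detected. Pcolce, the enhancer of that trimming, went the other way with 8.63 and 9.84 in IDE2+FGF2 cells, against 12.20 and 12.01 in ES cells (-2.86, SE 0.41, adjusted p = 0.00044); its change was -2.26 without replicate 1 and -3.47 without replicate 2. The replicates of Pcolce were thus both below ES cells but unequal.

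In the basement membrane, the sheet under epithelia and around muscle, 7 of 15 tested genes rose and none fell (18 listed, 17 with a probe, median log2 change 0.74). Without replicate 1 of ES, 4 rose, and without replicate 2 of IDE2+FGF2 1 fell. The collagen IV chains led: Col4a5 was at least 5.50-fold higher (adjusted p = 1.9e-05), Col4a2 had 12.38 and 13.29 against 9.61 and 9.87 in ES cells (3.10, SE 0.34, adjusted p = 9.7e-05), and Col4a1 rose by 2.23. Lamb1, a laminin chain, rose by 2.55. Of the 12 integrins tested (16 listed, 15 with a probe), which anchor cells to this matrix, 5 rose and 2 fell, and 2 rose without replicate 1 of ES and 3 without replicate 2; 1 fell without either ES replicate or replicate 1 of IDE2+FGF2. Itgb5, a vitronectin receptor chain, had 11.46 and 10.83 against 8.02 and 8.55 in ES cells (2.86, SE 0.31, adjusted p = 9.1e-05), Itga3, a laminin receptor chain, rose by 1.35, and Itgb7, better known from lymphocytes, fell by 2.87.

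Stromal surface and cytoskeletal markers rose in 9 of 18 tested members and fell in 1 of 21 listed, all with a probe (median log2 change 1.13). Cd248, the pericyte protein endosialin, had 9.42 and 9.19 in IDE2+FGF2 cells, against 5.64 and 6.06 in ES cells (3.46, SE 0.33, adjusted p = 3.4e-05). The calcium-dependent membrane binders Anxa5, Anxa1 and Anxa3 rose by 3.40, 3.25 and 2.77, the galectin Lgals1 by 3.15, and the mesenchymal filament protein Vim by 2.19. Pdgfra, a receptor of platelet-derived growth factor, rose by 1.47, a call lost without replicate 1 of ES. Pdgfrb, the receptor of pericytes, had 5.40 and 7.16 and was detected on replicate 2 only (1.15, adjusted p = 0.11). Thy1, a surface protein of fibroblasts and neurons, fell by 1.66, a call lost without either ES replicate or replicate 1 of IDE2+FGF2, and 2 members fell without replicate 2 of IDE2+FGF2.

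**Figure D3:**
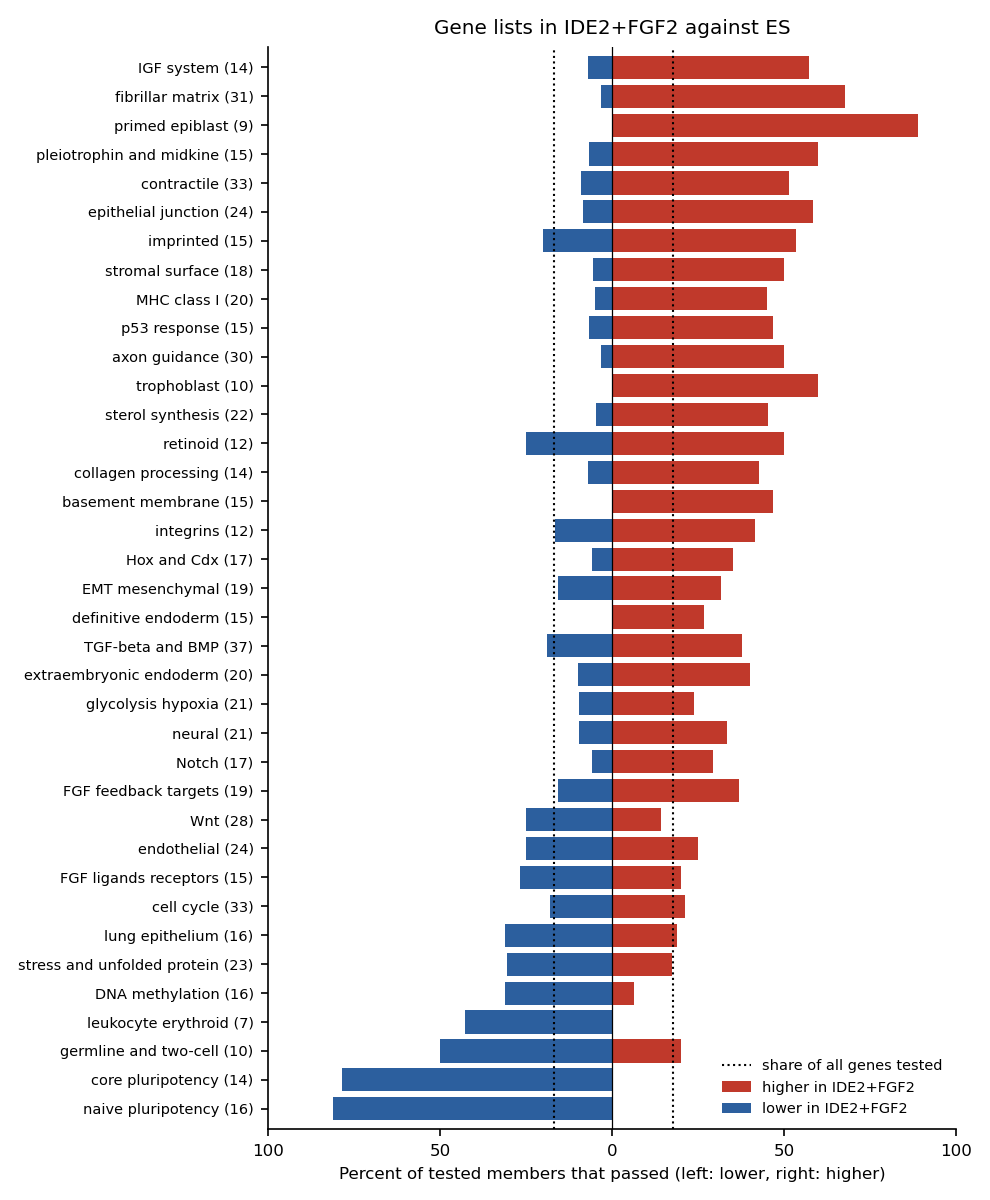
Percent of the tested members of each of the 37 gene lists that were lower (left of 0) and higher (right of 0) in IDE2+FGF2 than in ES cells; dotted lines mark the shares over all genes tested, 16.8% lower and 17.8% higher. Naive and core pluripotency reach furthest to the left, and primed epiblast, fibrillar matrix, pleiotrophin partners and the contractile and epithelial lists reach far to the right.

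Genes of FGF signalling itself moved both ways. Of 24 targets and feedback genes, 23 had a probe and 19 were tested; 7 rose and 3 fell (median log2 change 0.21), but the balance rested on single arrays: between 2 and 4 rose when 1 of the ES or IDE2+FGF2 arrays was left out, and without replicate 2 of IDE2+FGF2 4 rose and 7 fell. Dusp4, a phosphatase that switches off ERK, had 12.84 and 13.26 in IDE2+FGF2 cells, against 10.58 and 10.53 in ES cells (2.50, SE 0.27, adjusted p = 9e-05). The immediate early gene Fos rose by 2.48 (adjusted p = 0.00014). Dusp6, the ERK phosphatase usually read as an FGF response, had 13.95 and 13.98 against 12.70 and 12.68 in ES cells (1.28, adjusted p = 0.017), a call lost when any of the 4 arrays was left out. By contrast, the ETS factor Etv4 had 10.04 and 11.27 against 12.88 and 13.03 in ES cells (-2.30, SE 0.39, adjusted p = 0.0012; -1.69 without replicate 1 and -2.92 without replicate 2). Spry4, a Sprouty inhibitor, had 5.63 and 7.82 against 8.86 and 9.03 in ES cells (-2.22, SE 0.54, adjusted p = 0.0095), with -1.13 without replicate 1, -3.32 without replicate 2 and no call without replicate 2 of ES. Etv5 had 8.61 and 9.84 against 10.22 and 10.03 in ES cells and did not pass (-0.90, adjusted p = 0.13), nor did Egr1 (0.21, adjusted p = 0.59) or cyclin Ccnd1 (-0.17, adjusted p = 0.76). Myc fell by 1.84.

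FGF ligands and receptors also moved both ways, with 3 of 15 tested genes higher and 4 lower (24 listed, 23 with a probe, median log2 change -0.05). The median was 0.12 without replicate 2 of ES, 0.14 without replicate 1 of IDE2+FGF2 and 0.27 under a stricter detection filter, under which 2 were lower. Fgf15, a ligand of the endocrine subfamily, had 6.30 and 5.99 in IDE2+FGF2 cells, against 7.90 and 7.83 in ES cells (-1.72, SE 0.27, adjusted p = 0.00075), and Fgf17, a relative of Fgf8, fell by 3.32 (adjusted p = 2.3e-05). Fgf4, the ligand by which ES cells signal to themselves, fell by 1.13, a call lost in 6 of the alternative settings. Fgfr2, a receptor of epithelia, was detected on its brightest probe on both IDE2+FGF2 arrays, at 6.78 and 6.98, and on neither ES array (at least 2.37-fold, adjusted p = 0.0011), while another of its probes was detected on 1 ES array and did not pass (0.28). Fgfr1, which binds FGF2, had 5.48 and 8.02 against 7.22 and 7.42 in ES cells (-0.57, adjusted p = 0.52), so its 2 IDE2+FGF2 arrays lay on either side of the ES arrays.

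Many insulin-like growth factor genes rose beside Igf2. Of 17, 16 had a probe and 14 were tested; 8 rose and 1 fell (median log2 change 2.02), and none fell when any ES, IDE2+FGF2 or IDE2+FGF10 array was left out. Igfbp4, a binding protein that holds IGF away from its receptor, had 12.25 and 11.10 in IDE2+FGF2 cells, against 5.83 and 5.71 in ES cells (5.90, SE 0.36, 59.9-fold, adjusted p = 3.9e-06). Igfbp7 had 12.12 and 11.11 against 6.56 and 6.57 in ES cells (5.05, SE 0.38, adjusted p = 8.8e-06), and Igfbp5 was at least 13.4-fold higher (adjusted p = 8.8e-06). The receptor Igf1r, the clearance receptor Igf2r and the docking protein Irs2 rose by 2.15, 2.71 and 2.78. Igf1 itself had 6.56 and 6.01 against 6.46 and 6.09 in ES cells (0.01, adjusted p = 0.98).

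Imprinted genes, which are read from 1 parental allele, rose in 8 of 15 tested members and fell in 3 (22 listed, 20 with a probe, median log2 change 1.16), and 1 fell without replicate 1 of ES. Dlk1, a Notch-like growth regulator, had 10.04 and 12.47 in IDE2+FGF2 cells, against 6.92 and 6.66 in ES cells (4.47, SE 0.59, adjusted p = 0.00028), with 5.68 without replicate 1 and 3.26 without replicate 2. Peg3, a zinc finger protein, was at least 6.23-fold higher, and the cell cycle inhibitor Cdkn1c rose by 2.83, the stimulatory G protein gene Gnas by 2.27, the adaptor Grb10 by 2.02 and necdin, Ndn, by 1.84. Phlda2, a brake on placental growth, went down, with 9.92 and 9.59 against 11.97 and 11.93 in ES cells (-2.20, SE 0.42, adjusted p = 0.0024).

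Pleiotrophin and its receptors and carriers rose in 9 of 15 tested members and fell in 1 (16 listed, 15 with a probe, median log2 change 1.35). Ptn, pleiotrophin, a heparin-binding growth factor, had 10.41 and 9.77 in IDE2+FGF2 cells and was undetected in ES cells (higher by at least 4.46 on the log2 scale, adjusted p = 4.9e-06). The heparan sulfate carriers Sdc3, Gpc3, Sdc2, Gpc4 and Gpc1 were also higher: Sdc3 at least 12.6-fold, and Gpc3, Sdc2, Gpc4 and Gpc1 by 2.82, 2.35, 2.08 and 1.74 on the log2 scale. Ncl, nucleolin, a nucleolar protein that also binds these factors at the surface, fell by 2.67.

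In the TGF-beta and BMP family 14 of 37 tested genes rose and 7 fell (46 listed, 42 with a probe, median log2 change 0.42), and 9 rose without either ES replicate. Several members fell. Nodal, which patterns the epiblast, had 5.97 and 6.61 in IDE2+FGF2 cells, against 9.08 and 9.40 in ES cells (-2.95, SE 0.34, adjusted p = 0.00011), Bmp4 fell by 2.37, the Nodal inhibitor Lefty2 by 1.96 and the BMP target Id1 by 2.31. Lefty1 (-0.20, adjusted p = 0.67) and Id3 (0.07, adjusted p = 0.92) did not pass. Others rose. Tgfb2 had 9.05 and 8.63 against 6.76 and 6.37 in ES cells (2.27, SE 0.31, adjusted p = 0.00035), the receptor Tgfbr2 rose by 2.61, Tgfbr3 was at least 2.95-fold higher, and Ltbp1, which stores latent TGF-beta in the matrix, was at least 7.09-fold higher on its brightest probe, though not on another (-0.30), which was detected on 1 ES array. Bmp7 rose by 2.31. Tgfb1 had 5.49 and 8.13 against 8.30 and 8.41 in ES cells (-1.54, adjusted p = 0.084), with replicate 2 near the ES level and replicate 1 far below it.

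Wnt genes moved both ways: 4 of 28 tested rose and 7 fell (37 listed, 35 with a probe, median log2 change 0.16), 4 and 3 fell without replicate 1 and replicate 2 of ES, and the median was -0.18 under a stricter detection filter. Notum, a secreted Wnt deacylase and Wnt target, had 5.49 and 5.29 in IDE2+FGF2 cells, against 8.22 and 8.24 in ES cells (-2.84, SE 0.26, adjusted p = 2.8e-05), and 1 IDE2+FGF2 array detected it. Wnt3a was undetected in IDE2+FGF2 cells and at least 3.10-fold lower (adjusted p = 0.0003). The ligand-modifying acyltransferase Porcn fell by 1.62. On the other side, Dkk3, a secreted member of the Dickkopf family, was at least 17.3-fold higher (adjusted p = 5.9e-06) and the receptor Fzd2 rose by 2.66. The transducer Ctnnb1, beta-catenin, had 13.41 and 13.34 against 13.12 and 12.93 in ES cells (0.35, adjusted p = 0.36).

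In the Notch list 5 of 17 tested genes were higher and 1 lower (22 listed and with a probe, median log2 change 0.23), a share of 35.3% changed beside 34.5% of all genes. Without either ES replicate 3 were higher, without replicate 1 of IDE2+FGF2 3 were lower and without its replicate 2, or either IDE2 array, 2; the median was -0.09 under a stricter detection filter. The targets Hey1 and Nrarp rose by 1.34 and 1.45, Rfng, a glycosyltransferase that tunes Notch, fell by 2.76, and the receptor Notch1 did not pass (-0.54, adjusted p = 0.33). In retinoid signalling 6 of 12 tested genes rose and 3 fell (22 listed, 20 with a probe, median log2 change 0.80), and 3 rose without replicate 1 of IDE2+FGF2 and 1 fell without either ES replicate. Rarb, a receptor that retinoic acid induces, had 8.35 and 8.56 in IDE2+FGF2 cells and was undetected in ES cells (at least 7.06-fold, adjusted p = 0.0001). Nr2f1, the orphan receptor COUP-TFI, was at least 11.4-fold higher (adjusted p = 5.4e-06). Rarg had 7.06 and 8.53 against 11.11 and 10.98 in ES cells (-3.24, SE 0.43, adjusted p = 0.0003), with -2.51 without replicate 1 and -3.98 without replicate 2, so the retinoic acid receptors did not move one way.

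Axon guidance genes, which steer cells and vessels as well as axons, rose in 15 of 30 tested members and fell in 1 (40 listed, 37 with a probe). Their median log2 change was 0.93, or 0.32 with undetected genes set at their bound, and 9 rose without replicate 1 of ES. Slit2, a secreted repellent, had 7.64 and 7.75 in IDE2+FGF2 cells and was undetected in ES cells (at least 4.19-fold, adjusted p = 0.00023). The ephrin ligand Efna5 rose by 4.34 (SE 0.26, 20.2-fold, adjusted p = 3.9e-06), and its relative Efna1 had 7.98 and 7.29 and was undetected in ES cells. The semaphorin receptor Plxna2 had 9.57 and 8.35 and was likewise undetected in ES cells (adjusted p = 3.9e-05). Plxna2 was higher by at least 3.33 on the log2 scale, with a bound of 3.94 from replicate 1 alone and 2.72 from replicate 2 alone. Epha2, a receptor of ES cells, fell by 1.90.

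Many epithelial genes rose beside the matrix genes. Of 31, 26 had a probe and 24 were tested; 14 rose and 2 fell (median log2 change 1.22), and 9 rose without replicate 2 of ES; 1 fell without either ES replicate or replicate 1 of IDE2+FGF2. The simple epithelial keratins Krt18, Krt8 and Krt7 led. Krt18 had 12.68 and 13.07 in IDE2+FGF2 cells, against 9.12 and 9.01 in ES cells (3.81, SE 0.27, adjusted p = 8.1e-06). Krt8 had 13.16 and 14.07 against 10.72 and 10.83 in ES cells (2.84, SE 0.33, adjusted p = 0.00012), and Krt7 was at least 12.8-fold higher (adjusted p = 9.1e-06). The tight junction protein Cldn3 rose by 2.20, the protease Prss8 by 2.03 and P-cadherin, Cdh3, by 1.92. E-cadherin, Cdh1, had 10.95 and 10.44 against 10.11 and 10.05 in ES cells (0.62, adjusted p = 0.12). Ovol1, an epithelial repressor, was detected on 1 IDE2+FGF2 array and fell by 1.98.

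Of 32 genes of the mesenchyme and of epithelial-mesenchymal transition, 30 had a probe and 19 were tested, 6 of which rose and 3 fell (median log2 change 0.43). Foxc1, a forkhead factor of mesoderm and neural crest, was at least 6.88-fold higher (adjusted p = 2.5e-05) and Twist2 at least 3.51-fold (adjusted p = 0.00038). Twist1 had 8.32 and 9.95 against 6.95 and 7.25 in ES cells (2.03, adjusted p = 0.006), with 2.85 without replicate 1, 1.22 without replicate 2 and no call without replicate 1 of ES. The E-cadherin repressors Zeb1, Zeb2 and Snai1 did not pass: Zeb1 changed by 0.85 (adjusted p = 0.079), Zeb2 by 0.86 (adjusted p = 0.087) and Snai1 by -0.15 (adjusted p = 0.71). N-cadherin, Cdh2, was near its detection limit at 6.16 and 5.49 (0.66, adjusted p = 0.22).

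The defining factors of definitive endoderm did not pass the test on their brightest probes. Of 26 genes, 24 had a probe and 15 were tested; 4 rose and none fell (median log2 change 0.43), and the 4 were Krt18, Krt8, Krt19 and Cldn6, which other epithelia also make; the call of Cldn6 was lost without replicate 2 of ES. Sox17, the endoderm factor, had 7.03 and 6.97 in IDE2+FGF2 cells, against 6.43 and 5.92 in ES cells (0.82, adjusted p = 0.074); a dimmer probe rose by 0.91 (adjusted p = 0.028). Gata6 had 8.74 and 8.17 against 8.03 and 8.03 in ES cells (0.43, adjusted p = 0.29). Foxa2 and Gata4 were undetected on all arrays of the series.

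Of 29 lung genes, 28 had a probe and 16 were tested, with 3 higher and 5 lower (median log2 change -0.17), and 3 lower without replicate 2 of ES. Nkx2-1, the factor that specifies lung, and Sftpc, surfactant protein C, were undetected on all 8 arrays. Cav1, a coat protein of caveolae found in alveolar type I and many other cells, was at least 8.84-fold higher (adjusted p = 3.6e-05), Pdpn, podoplanin, rose by 2.18 and the lipid transporter Abca3 by 1.82 on its brightest probe. Napsa, a protease that processes surfactant, had 5.58 and 5.67 in IDE2+FGF2 cells, against 9.22 and 9.09 in ES cells (-3.53, SE 0.27, adjusted p = 1e-05), and the mucin Muc1 fell by 1.59.

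Extraembryonic endoderm genes rose in 8 of 20 tested members and fell in 2 (32 listed, 28 with a probe, median log2 change 0.41), and 5 rose without replicate 2 of ES. Ttr, the thyroid hormone carrier of visceral endoderm, had 8.89 and 8.36 in IDE2+FGF2 cells and was undetected in ES cells (at least 7.95-fold, adjusted p = 0.0006). Thbd, thrombomodulin, a mark of parietal endoderm and vessels, was at least 5.13-fold higher (adjusted p = 0.00069). Afp, the fetoprotein of yolk sac and liver, was undetected in IDE2+FGF2 cells, the endoderm factor Sox7 fell by 2.47 and transferrin, Trf, detected on 1 IDE2+FGF2 array, by 2.89. In the trophoblast list 6 of 10 tested genes rose and none fell (19 listed, 16 with a probe, median log2 change 0.91), led by Krt7 and by Plac1, at least 3.80-fold higher (adjusted p = 9.5e-05), with Gata3 and Gata2 higher by 1.71 and 1.31. The trophoblast markers Elf5 and Tpbpa were undetected.

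In the comparison with ES cells 6 of 24 tested endothelial genes were higher and 6 lower (36 listed, 35 with a probe, median log2 change 0.01). Under a stricter detection filter 4 were higher and 6 lower, with a median of -0.71, and the median was -0.07 without replicate 1 of ES and -0.01 and -0.20 without replicates 1 and 2 of IDE2+FGF2. Emcn, the vessel sialomucin endomucin, had 9.13 and 9.19 in IDE2+FGF2 cells and was undetected in ES cells (at least 11.5-fold, adjusted p = 4.5e-06). Flt1, a receptor of VEGF, had 9.58 and 9.23 and was undetected in ES cells (at least 13.6-fold, adjusted p = 7.2e-06). Lmo2, a co-factor of blood and vessel formation, had 10.28 and 9.73 against 6.22 and 6.40 in ES cells (3.70, SE 0.29, adjusted p = 1.1e-05), and Ets1 rose by 3.04. Pecam1, which ES cells make as well as vessels, fell by 2.59, Robo4 by 2.10 and the adhesion protein Esam by 2.09. In the blood list no gene rose and 3 of 7 tested fell (25 listed, 21 with a probe, median log2 change -0.55), among them Laptm5, with 11.25 and 10.79 against 13.55 and 13.55 in ES cells (-2.54, SE 0.28, adjusted p = 9e-05).

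Neural genes rose in 7 of 21 tested members and fell in 2 (35 listed, 30 with a probe, median log2 change 0.24). Gap43, a protein of growing axons, had 9.75 and 9.78 in IDE2+FGF2 cells, against 6.29 and 6.37 in ES cells (3.44, SE 0.26, adjusted p = 8.8e-06). Nes, the filament nestin, rose by 2.23 on its brightest probe, Zic1 was at least 2.52-fold higher, and Stmn3, a microtubule regulator of neurons, fell by 1.90. Among Hox genes and their partners 6 of 17 tested rose and 1 fell (39 listed, 37 with a probe, median log2 change 0.43), and 3 rose under a stricter detection filter. The partners Meis1 and Meis2 rose by 2.90 and 2.19, Hoxc6 was at least 3.10-fold higher (adjusted p = 0.0001), and Cdx1, a posterior homeobox gene, was undetected in IDE2+FGF2 cells and at least 5.78-fold lower (adjusted p = 2.4e-05).

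Antigen presentation by MHC class I rose in 9 of 20 tested genes and fell in 1 (28 listed, 24 with a probe, median log2 change 0.99). B2m, the light chain of every class I molecule, had 12.45 and 12.66 in IDE2+FGF2 cells, against 9.84 and 9.57 in ES cells (2.85, SE 0.35, adjusted p = 0.00018). The non-classical heavy chain H2-T23 rose by 2.56, the interferon factor Irf1 by 1.91 and the peptide transporter Tap1 by 1.89, and its partner tapasin, Tapbp, was at least 2.08-fold higher on its brightest probe. Of Tap1, and of another Tapbp probe, 1 ES array gave a detected level. Cd1d1, which presents lipids, fell by 1.52.

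Responses to p53 rose in 7 of 15 tested genes and fell in 1 (20 listed, 17 with a probe, median log2 change 0.96), and 2 fell without replicate 2 of IDE2+FGF2 or either IDE2 replicate. Cdkn1a, the inhibitor p21, had 11.79 and 11.72 in IDE2+FGF2 cells, against 9.13 and 8.98 in ES cells (2.70, SE 0.29, adjusted p = 8e-05), and the death genes Bbc3, Fas and Tnfrsf10b rose by 2.61, 2.42 and 2.20, Fas from a level that 1 ES array detected. Sesn2, a sensor of amino acids and oxidants, fell by 1.92. Stress genes as a whole were mixed, 4 of 23 tested higher and 7 lower (25 listed, 24 with a probe, median log2 change -0.37); without replicate 1 or 2 of ES, 2 were higher and 4 lower, and 2 were higher without replicate 1 of IDE2+FGF2 or either IDE2+FGF10 replicate. Atf3 was at least 6.06-fold higher and Ddit3, the factor CHOP, rose by 2.22, whereas heme oxygenase, Hmox1, fell by 2.62 and the quinone reductase Nqo1 by 1.48.

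The cell cycle list had no single direction, 7 of 33 tested higher and 6 lower (40 listed, 36 with a probe, median log2 change -0.16), and leaving out an ES replicate left 3 or 4 higher and 2 lower, and leaving out replicate 1 of IDE2+FGF2 left 3 lower. Ccne1, the cyclin that drives the rapid G1 phase of ES cells, had 7.49 and 8.38 in IDE2+FGF2 cells, against 10.75 and 10.31 in ES cells (-2.60, SE 0.35, adjusted p = 0.0003). The kinase inhibitor Cdkn2b was at least 4.17-fold higher, a log2 bound of 2.06 that was 2.66 from replicate 1 alone and 1.46 from replicate 2 alone. The cell cycle inhibitors Cdkn1a and Cdkn1c also rose, as given above. The replication clamp Pcna (-0.52, adjusted p = 0.17), the topoisomerase Top2a (-0.09, adjusted p = 0.86) and the mitotic kinase Cdk1 (0.76, adjusted p = 0.059) did not pass.

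Among DNA methylation and heterochromatin genes 5 of 16 tested fell and 1 rose (25 listed, 20 with a probe, median log2 change -0.38), and 2 rose without either IDE2 replicate. Dnmt3l, the co-factor of de novo methylation, had 12.02 and 11.58 in IDE2+FGF2 cells, against 14.82 and 15.09 in ES cells (-3.15, SE 0.30, adjusted p = 3.5e-05). Trim28, the co-repressor that silences retroelements, fell by 1.94, the histone methyltransferase Ehmt2 by 1.74 and Mbd3, a subunit of the NuRD complex, by 1.63. Uhrf2, a reader of modified cytosine, rose by 1.71 on its brightest probe.

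Sterol and fatty acid synthesis rose in 10 of 22 tested genes and fell in 1 (29 listed, 23 with a probe, median log2 change 0.81); none fell without either ES replicate or replicate 1 of IDE2+FGF2, and 2 fell without either IDE2 replicate. Cyp51, lanosterol demethylase, had 10.74 and 10.70 in IDE2+FGF2 cells, against 7.97 and 8.39 in ES cells (2.54, SE 0.35, adjusted p = 0.00033). The desaturase Scd1 rose by 2.56, the sterol carrier Stard4 by 2.29, Insig1, which holds back the SREBP factors, by 2.02, and Hmgcs1, at the entry to the mevalonate pathway, by 1.48. Glycolysis and hypoxia genes rose in 5 of 21 tested members and fell in 2 (26 listed, 22 with a probe, median log2 change 0.39) and 8 rose without either IDE2 replicate, while 1 fell without replicate 2 of ES and 4 without replicate 2 of IDE2+FGF2. The hypoxia targets Ddit4, Vegfa, Ndrg1 and Egln3 rose by 3.07, 1.96, 1.77 and 1.57, while the glycolytic enzyme Gapdh had 15.50 and 15.77 against 15.82 and 15.73 in ES cells (-0.14, adjusted p = 0.73) and Pfkp fell by 1.72.

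**Figure D4:**
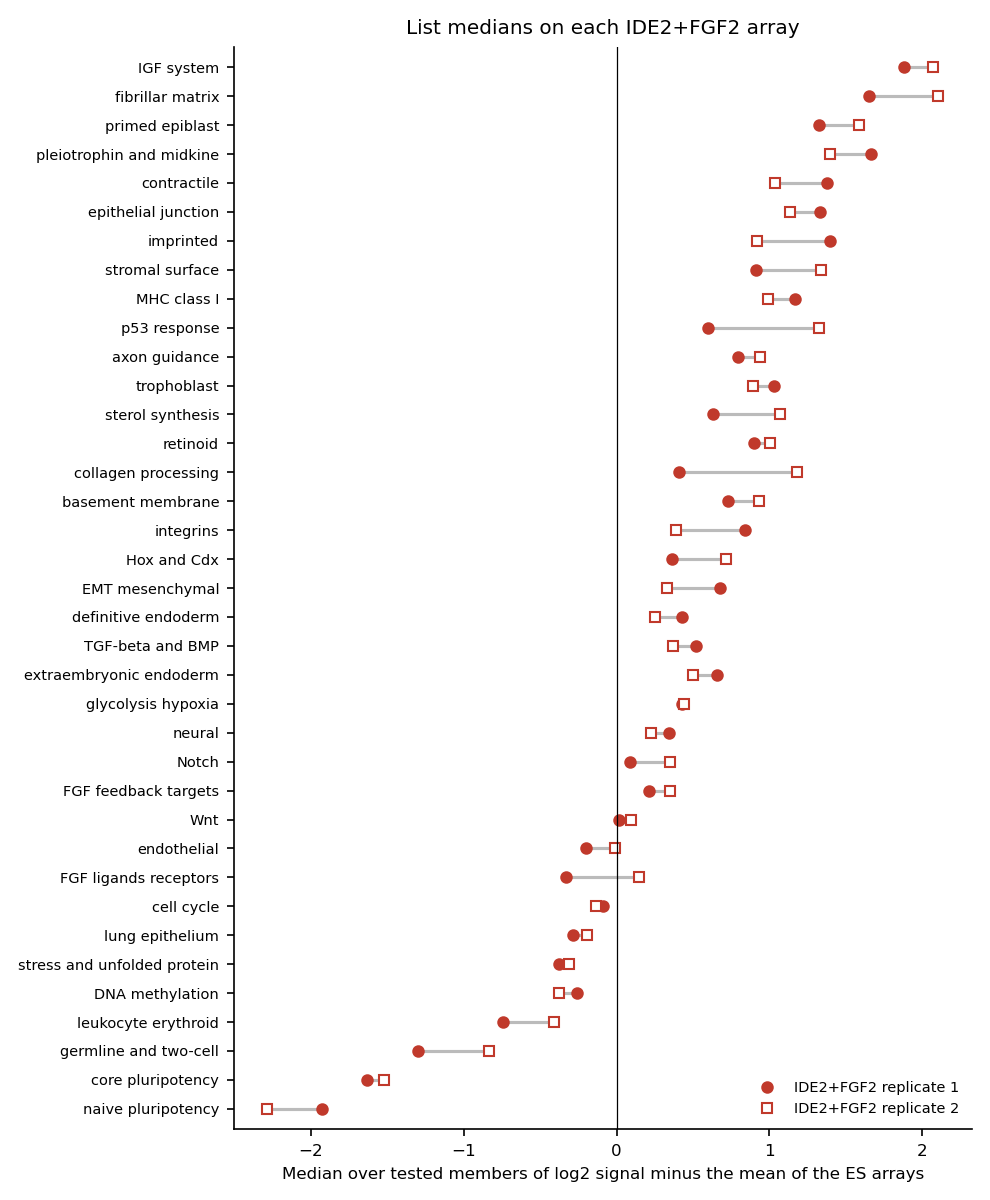
Median log2 change of each gene list on IDE2+FGF2 replicate 1 (filled circles) and replicate 2 (open squares), each against the mean of the 2 ES arrays. For naive pluripotency the medians were -1.93 and -2.29, and for fibrillar matrix 1.65 and 2.11, while both replicates of the Wnt list lie close to 0.

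The list medians of the 2 IDE2+FGF2 replicates lay from close together to 0.77 apart. Collagen processing had 0.41 on replicate 1 and 1.18 on replicate 2, and the p53 list 0.60 and 1.33. Imprinted genes had 1.40 and 0.92, integrins 0.84 and 0.39, and sterol synthesis 0.63 and 1.07. FGF ligands and receptors lay on either side of 0, at -0.33 and 0.14. Contractile genes had 1.38 and 1.03, insulin-like growth factor genes 1.88 and 2.07, and core pluripotency genes -1.63 and -1.52.

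The other 2 treated groups were read with the same fit. IDE2+FGF2 and IDE2+FGF10 cells shared the first 6 days and then had their growth factors at different doses, and IDE2 cells kept IDE2 for the last 5 days, so a difference from IDE2 cells goes with FGF2 and with the end of IDE2 alike. IDE2+FGF2 cells differed from IDE2 cells in 744 genes (7.50%), 367 higher (3.70%) and 377 lower (3.80%), and from IDE2+FGF10 cells in 725 (7.31%), 467 higher (4.71%) and 258 lower (2.60%); replicates did not overlap for 48.2% of all genes in the first comparison and 59.7% in the second, and the 2 comparisons share the IDE2+FGF2 arrays. Acta2 and Igf2 were not among them: Acta2 had 15.37 and 15.06 in IDE2+FGF2 cells, 15.35 and 15.35 in IDE2 cells and 14.98 and 14.86 in IDE2+FGF10 cells (adjusted p = 0.79 and 0.54), and Igf2 did not pass against either group (adjusted p = 0.94 and 0.99). Bgn did differ, at 11.87 and 11.92 in IDE2+FGF2 cells, 8.54 and 8.94 in IDE2 cells and 10.05 and 9.92 in IDE2+FGF10 cells (log2 difference 3.16 and 1.91, adjusted p = 0.00033 and 0.0058), the second call being lost in 3 of 18 alternative settings. Actc1 was higher than in IDE2 and IDE2+FGF10 cells by 1.37 and 1.30 (adjusted p = 0.028 and 0.034, lost in 9 and 7 of 18 settings), and Spon2 by 1.38 and 1.55 (adjusted p = 0.02 and 0.013, lost in 4 and 2).

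Of the 24 endothelial genes tested, 8 were higher in IDE2+FGF2 than in IDE2 cells and 9 higher than in IDE2+FGF10 cells, and none was lower than in either, where 3.70% and 4.71% of all genes were higher. This list and those below were written with earlier results of these data known, so such shares are no independent test. Most of the 24 did not pass in either comparison, Pecam1 among them (0.24 and 0.11, adjusted p = 0.68 and 0.87). Emcn had 9.13 and 9.19 in IDE2+FGF2 cells and was undetected in IDE2 and IDE2+FGF10 cells as in ES cells, at least 13.3-fold and 10.6-fold higher (adjusted p = 2.2e-05 and 2.3e-05). Lmo2 had 10.28 and 9.73 in IDE2+FGF2 cells, 7.12 and 6.88 in IDE2 cells and 7.22 and 7.17 in IDE2+FGF10 cells (differences 3.01 and 2.81). Robo4, a receptor of vessels, had 8.75 and 8.58 in IDE2+FGF2 cells, 5.68 and 5.98 in IDE2 cells, 5.96 and 6.27 in IDE2+FGF10 cells and 10.68 and 10.86 in ES cells, so it lay between the other treated groups and ES cells. Flt1 did not pass against IDE2 (-0.13, adjusted p = 0.81) or IDE2+FGF10 cells (0.22, adjusted p = 0.69), and the defining vessel genes Cdh5 and Kdr were undetected.

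Of the 19 FGF targets and feedback genes tested, 5 were higher and 1 lower in IDE2+FGF2 than in IDE2 cells, and 5 were higher and none lower than in IDE2+FGF10 cells. The shares over all genes were 3.70% higher and 3.80% lower in the first comparison and 4.71% and 2.60% in the second. Dusp4 had 12.84 and 13.26 in IDE2+FGF2 cells, 9.30 and 9.32 in IDE2 cells, 10.25 and 10.29 in IDE2+FGF10 cells and 10.58 and 10.53 in ES cells (differences from the treated groups 3.74 and 2.78, SE 0.27, adjusted p = 7e-05 and 0.00061). Etv4 had 10.04 and 11.27 in IDE2+FGF2 cells, 6.81 and 6.89 in IDE2 cells, 7.31 and 6.76 in IDE2+FGF10 cells and 12.88 and 13.03 in ES cells (3.80 and 3.62, SE 0.39, adjusted p = 0.00042 and 0.00091). For Dusp4, IDE2+FGF2 cells stood above all other arrays; for Etv4 they stood between the treated groups and ES cells. Etv5 was higher than in IDE2 and IDE2+FGF10 cells by 1.67 and 1.80 (adjusted p = 0.044 and 0.033), but these calls were lost in 11 and 8 of 18 settings. Dusp6 was higher than in IDE2+FGF10 cells (1.93, adjusted p = 0.012, lost in 3 of 18 settings) but not past the threshold against IDE2 cells (1.09, adjusted p = 0.083). Spry4 passed against neither (adjusted p = 0.07 and 0.055).

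Utf1 and Pou5f1 were higher in IDE2+FGF2 cells than in the other treated groups. Utf1 had 10.85 and 11.56 in IDE2+FGF2 cells, 7.95 and 6.95 in IDE2 cells, 8.77 and 8.82 in IDE2+FGF10 cells and 13.02 and 13.01 in ES cells (differences 3.75 and 2.41, adjusted p = 0.00034 and 0.0055). Pou5f1 had 11.75 and 12.57 in IDE2+FGF2 cells, 10.31 and 9.31 in IDE2 cells, 10.29 and 10.13 in IDE2+FGF10 cells and 15.23 and 14.78 in ES cells (2.35 and 1.95, adjusted p = 0.0079 and 0.018), calls lost in 4 and 3 of 18 alternative settings; that of Utf1 against IDE2+FGF10 cells was lost in 3. Nanog and Zfp42 did not pass against IDE2 cells (0.11 and -0.07, adjusted p = 0.83 and 0.91), but both were higher than in IDE2+FGF10 cells, Nanog by 1.38 (adjusted p = 0.016, lost in 2 of 18 settings) and Zfp42 by 1.19 (adjusted p = 0.049, lost in 12). Of the 14 core pluripotency genes tested, 2 were higher and 1 lower than in IDE2 cells (median difference 0.12), and 5 were higher and none lower than in IDE2+FGF10 cells (median difference 1.06). These counts stand beside 3.70% of all genes higher and 3.80% lower in the first comparison and 4.71% and 2.60% in the second. The core gene lower than in IDE2 cells was Sox2 (-1.015, adjusted p = 0.045), a call lost in 12 of 18 settings. Against IDE2+FGF10 cells Sox2 did not pass (-0.25, adjusted p = 0.6).

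Other genes were far lower in IDE2+FGF2 cells than in both other treated groups. Tfap2b, an AP-2 factor, was undetected in IDE2+FGF2 cells on its brightest probe, though 1 array detected another, and had 10.16 and 10.12 in IDE2 cells and 9.93 and 9.86 in IDE2+FGF10 cells (at least 25.8-fold and 21.8-fold lower, adjusted p = 2.1e-05 and 2.3e-05). Egr2, a hindbrain zinc finger factor, had 6.24 and 5.53 in IDE2+FGF2 cells, 10.13 and 10.46 in IDE2 cells and 8.62 and 8.99 in IDE2+FGF10 cells (-4.41 and -2.92, adjusted p = 0.00011 and 0.0016). Wnt3a was undetected in IDE2+FGF2 cells and at least 15.4-fold and 11.4-fold lower than in the other treated groups. In ES cells Tfap2b was undetected too, Egr2 had 5.94 and 5.35 and was detected on 1 array, and Wnt3a had 7.27 and 6.89. Cbln1, a synaptic organiser of the cerebellum, was lower by 4.81 and 4.41, and Otx1, a homeobox factor of the forebrain, by 3.39 and 3.34, with 1 IDE2+FGF2 array detecting it. Crabp2, which carries retinoic acid, had 7.70 and 7.90 in IDE2+FGF2 cells, 11.79 and 10.38 in IDE2 cells and 11.68 and 11.55 in IDE2+FGF10 cells (-3.29 and -3.81, adjusted p = 0.0018 and 0.00095), the first call being lost in 1 of 18 settings. Ptn was lower as well, at 10.41 and 9.77 in IDE2+FGF2 cells, 12.99 and 13.60 in IDE2 cells and 12.66 and 12.68 in IDE2+FGF10 cells (-3.20 and -2.58, adjusted p = 0.00038 and 0.0022), though far above ES cells.

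Among the 1760 genes higher in IDE2+FGF2 than in ES cells, 154 were higher and 92 lower than in IDE2 cells, and 161 were higher and 71 lower than in IDE2+FGF10 cells. Among the 1663 lower than in ES cells, 65 were higher and 66 lower than in IDE2 cells, and 88 were higher and 37 lower than in IDE2+FGF10 cells. Over all 9915 genes, 3.70% were higher and 3.80% lower than in IDE2 cells, and 4.71% higher and 2.60% lower than in IDE2+FGF10 cells. The same IDE2+FGF2 arrays enter every comparison, so genes picked as high against ES cells are more apt to be high against the other groups. Of the 9915 genes, 151 were higher and 94 lower in IDE2+FGF2 cells than in both other treated groups. The counts against IDE2 cells rested on single arrays, from 102 genes without replicate 2 of IDE2+FGF2 to 2422 without replicate 1 of IDE2, and those against IDE2+FGF10 cells went down to 68 without replicate 2 of IDE2+FGF10.

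**Figure D5:**
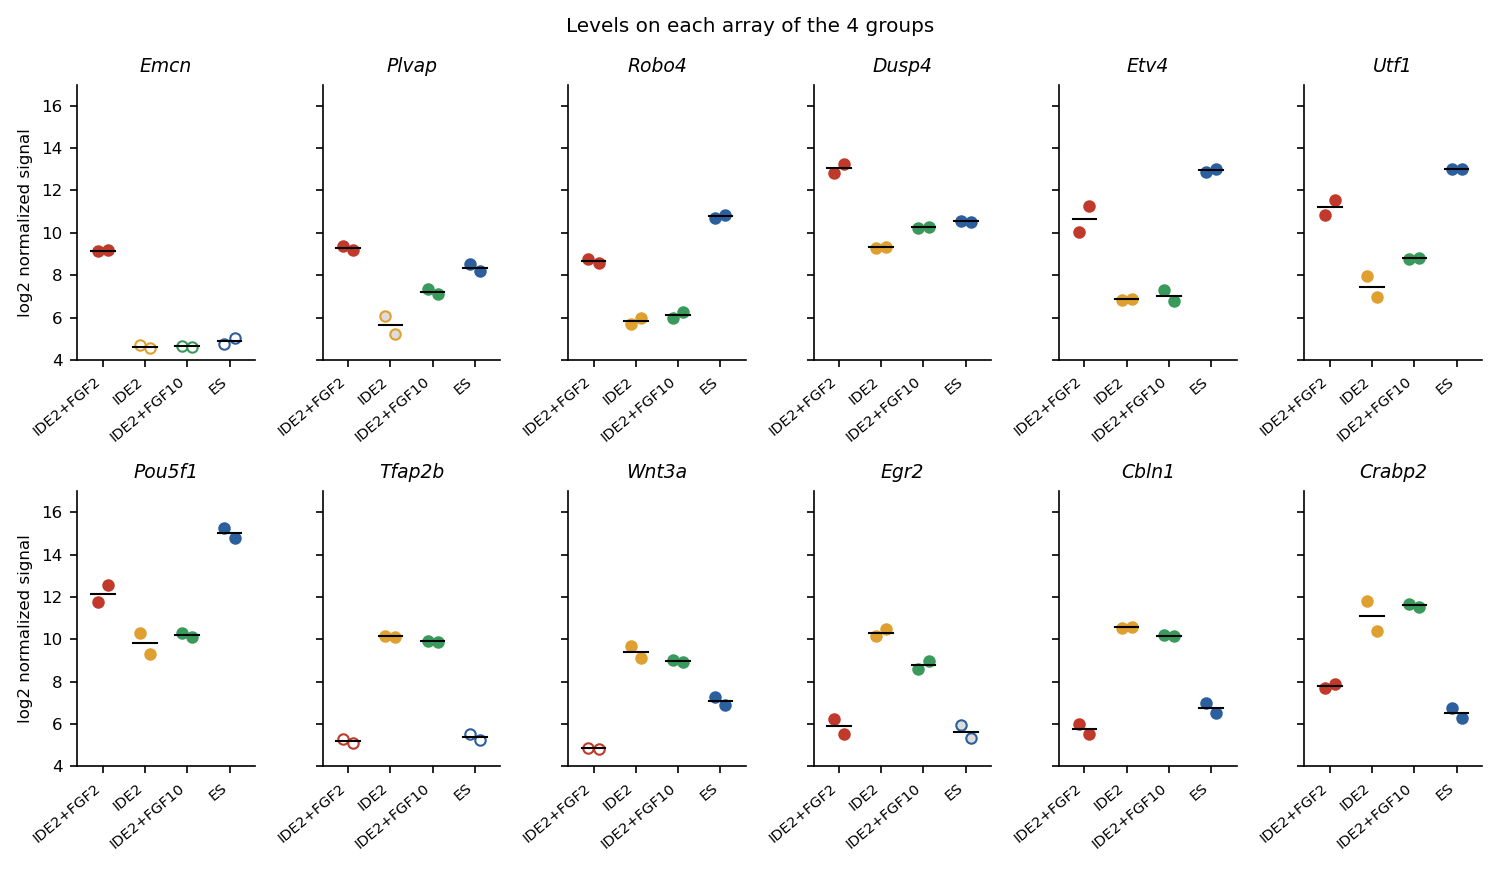
Log2 level of 12 genes on the arrays of IDE2+FGF2, IDE2, IDE2+FGF10 and ES cells, in that order, with a line at each group's mean. Emcn and Dusp4 are highest in IDE2+FGF2 cells; Robo4, Etv4, Utf1 and Pou5f1 lie between the other treated groups and ES cells; Tfap2b, Wnt3a, Egr2, Cbln1 and Crabp2 are lower in IDE2+FGF2 cells than in IDE2 and IDE2+FGF10 cells.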

How the data were processed

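RNA of 4 groups of 2 samples was hybridised to Illumina arrays, and the submitters' processing notes name BeadStudio. Per the file headers, the authors deposited each probe's mean bead intensity, the count of beads behind it and its detection p-value. A second deposited table of normalized intensity values, whose method is not given in the sources used here, served as an alternative. Of 25697 probes, 23978 had 1 gene symbol and 1719 none. Signals were background-corrected and quantile-normalized with neqc (limma 3.58.1, R 4.3.3; offset 16, detection p-values in place of control probes), which also shrinks low values. Probes detected on at least 2 of 8 arrays were kept, 14502 in all, and the brightest probe stood for each of 9915 genes. limma fitted 1 mean per group over all arrays and was tested on simulated data. Samples were not paired by replicate number in the main fit. Deviations of same-numbered arrays correlated at -0.067 to 0.012, which shows no shared shift but cannot tell whether the replicates were matched.

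The members and the 37 gene lists (990 entries, 894 with a probe, 697 tested) were chosen with earlier results of these data known. Named genes were the 15 largest rises and falls, up to 6 changed members a list in each direction, list members against the majority, the 8 largest differences in each direction from each other treated group, and 27 set genes. A further 55 were chosen after their values were seen. The number of arrays limits the precision.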

Additional observations from a re-analysis of the deposited data

How the results depend on the processing

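Against ES cells, 3423 genes differed, and every analysis setting that kept all 8 arrays, or only the 4 compared, gave between 3005 (a stricter detection filter) and 3447 (an intensity trend together with robust variances). Leaving out 1 array gave 1819 without replicate 1 of ES, 1878 without replicate 2 of ES, 2571 and 3352 without replicates 1 and 2 of IDE2+FGF2, and 4150 without either IDE2 replicate; leaving out replicate 2 of both IDE2 and IDE2+FGF2, a setting chosen after seeing the data, gave 5213. Where 1 array of a group is left, it is assumed to vary like the other groups. Against IDE2 cells, 744 genes differed, 489 without the detection filter, 73 with array weights, and 102 (without replicate 2 of IDE2+FGF2) to 2422 (without replicate 1 of IDE2) when arrays were left out. Median scaling gave 826, of which 62.3% were higher, against 49.3% of the 744. Against IDE2+FGF10 cells, 725 differed, and 68 to 2061 when arrays were left out; median scaling gave 1373, with 90.1% higher against 64.4% of the 725. With the replicate number as a block the counts were 3360 against ES cells, 638 against IDE2 cells and 665 against IDE2+FGF10 cells, all within 1.5 times of the fit without it. Under the stricter detection filter, which tests fewer genes, 4 list medians changed sign: Wnt was -0.18 against 0.16, endothelial -0.71 against 0.01, Notch -0.09 against 0.23, and FGF ligands and receptors 0.27 against -0.05. No gene called in both changed direction in any setting. Of the 313 named genes that differed from ES cells, 235 kept their call wherever they were tested, 211 of them in all 19 alternatives and 24 in 18, and 78 lost it in at least 1. Without background correction 161 of the 313 folds were smaller by over 1.5 times, and the deposited normalized table gave the same number. The log2 changes from that table nearly matched those without background correction, with Acta2 at 6.984 in both, so the 2 settings are not separate checks. A block for the chip was not run because the headers name no chips. Weak signals near background limit the fold of undetected genes to a bound, and 2 arrays a group limit every p-value.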
